A study of Mus musculus with 3 samples.

Results

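Acetylation of histone H3 (H3K27ac) was mapped by ChIP-seq, sequencing of immunoprecipitated chromatin, in spheroids of pancreatic epithelial cells from mice, and the regions described here are 851 peaks found in the untreated spheroids and missing from the post-caerulein peak list. A region was taken when it lay on chromosomes 1 to 19, had a deposited score of at least 300 in the untreated list and shared no base with any post-caerulein peak. These untreated-only peaks, the members, were 851 of the 23626 untreated peaks on those chromosomes with a score of at least 300, or 3.6% (exact 95% interval 3.37% to 3.85%). They were 2.25% of all 37765 untreated peaks and 16.3% of the 5229 untreated-only peaks of any score on those chromosomes. The regions were chosen by their score and their missing overlap, so these values are given as a description.

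The study compared spheroids derived from C57BL/6J wild-type mice after caerulein treatment with spheroids derived from untreated C57BL/6J wild-type mice, with 1 H3K27ac library each, and it also holds an input library of untreated spheroids, for which no peak list was used. Both spheroid cultures were grown in the same medium, which contained 20 ng/ml EGF, hydrocortisone, cholera toxin and insulin, were fixed in 1% formaldehyde for 10 min and were immunoprecipitated with 10 µg of antibody against H3K27ac. The labels give neither the age and sex of the mice, the caerulein dose and interval, nor whether mice were pooled. Since each condition is 1 library, the spread between replicates is unknown and no p-values are given. The lists hold no read counts, so the depth is unknown, and all intervals cover counting error over peaks only. A region missing from a peak list can still hold acetylated histones below the caller's limit. In a culture measured as a whole, fewer cells with the mark and less mark per cell cannot be told apart. The epithelial label was checked by a peak within 1 kb of a gene end: the ductal markers Krt19, Krt7, Krt8, Krt18, Sox9, Epcam and Cftr were each marked in both lists, against 1 of 8 acinar markers in each (Bhlha15) and 0 of 6 endocrine, 0 of 5 mesenchymal and 0 of 4 endothelial markers in each. Of 5 immune markers, 1 (Ptprc) was marked post-caerulein and 0 in the untreated list. The longer gene lists used below were not free of such marks: 5 of 16 immune and 4 of 14 endothelial genes had a marked end in each library. So had 1 of 16 mesenchymal genes in each, and of 17 endocrine genes 2 post-caerulein and 1 untreated.

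H3K27ac is placed by acetyltransferases of the CBP family on nucleosomes that flank active promoters and enhancers. Promoters of widely used genes are usually rich in CpG and keep the mark in many cell types, whereas enhancers, which mostly lie in introns or between genes, gain and lose it with cell state. Caerulein is an analogue of cholecystokinin that overstimulates acinar cells and causes pancreatitis in mice. Duct-type epithelium carries water and bicarbonate through channels and exchangers such as aquaporins and the chloride channel Cftr.

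Few of the untreated-only peaks covered a promoter, and the sequences of some that did are given first. The RefSeq promoters (GRCm38.p6) of 6 genes are shown, from 250 bases before the start to 50 after it, 5′ to 3′ on the strand of the gene. They were picked after their values were seen: a pair of aquaporins, an interferon-induced gene, an epithelial keratin, a cytokine and an intestinal transcription factor. Capitals mark every match, on either strand, to any of 15 motifs searched, and overlapping matches run together.
Aqp5, chr15:99590778-99591077, plus strand, under a member with a score of 3100: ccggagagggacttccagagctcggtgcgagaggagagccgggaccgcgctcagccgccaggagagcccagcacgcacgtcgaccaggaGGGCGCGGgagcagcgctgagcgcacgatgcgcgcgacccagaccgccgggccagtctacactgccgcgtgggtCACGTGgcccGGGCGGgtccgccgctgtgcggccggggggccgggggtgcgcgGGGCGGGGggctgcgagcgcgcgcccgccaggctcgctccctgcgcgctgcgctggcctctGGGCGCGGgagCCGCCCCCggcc
Aqp3, chr4:41098134-41098433, minus strand, under a member with a score of 523.97: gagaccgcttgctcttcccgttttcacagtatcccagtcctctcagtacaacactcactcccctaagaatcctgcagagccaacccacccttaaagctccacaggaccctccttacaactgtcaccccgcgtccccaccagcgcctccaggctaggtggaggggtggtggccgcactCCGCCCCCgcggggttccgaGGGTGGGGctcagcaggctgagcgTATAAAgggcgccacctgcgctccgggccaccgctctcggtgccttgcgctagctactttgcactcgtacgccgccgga
Ifitm3, chr7:141010695-141010994, minus strand, under a member with a score of 3100: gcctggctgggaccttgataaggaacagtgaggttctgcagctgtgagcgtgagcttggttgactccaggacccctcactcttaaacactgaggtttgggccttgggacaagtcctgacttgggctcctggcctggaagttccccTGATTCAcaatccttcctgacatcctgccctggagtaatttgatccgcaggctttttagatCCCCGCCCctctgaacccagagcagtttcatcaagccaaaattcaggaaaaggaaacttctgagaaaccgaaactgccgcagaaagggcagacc
Krt13, chr11:100121517-100121816, minus strand, under a member with a score of 1254.21: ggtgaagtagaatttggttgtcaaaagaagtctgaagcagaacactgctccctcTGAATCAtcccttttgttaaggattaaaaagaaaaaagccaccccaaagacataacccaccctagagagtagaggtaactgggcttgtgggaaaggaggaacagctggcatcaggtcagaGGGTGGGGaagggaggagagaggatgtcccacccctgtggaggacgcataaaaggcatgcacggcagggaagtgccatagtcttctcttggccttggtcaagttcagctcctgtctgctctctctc
Il1a, chr2:129309923-129310222, minus strand, under a member with a score of 1006.55: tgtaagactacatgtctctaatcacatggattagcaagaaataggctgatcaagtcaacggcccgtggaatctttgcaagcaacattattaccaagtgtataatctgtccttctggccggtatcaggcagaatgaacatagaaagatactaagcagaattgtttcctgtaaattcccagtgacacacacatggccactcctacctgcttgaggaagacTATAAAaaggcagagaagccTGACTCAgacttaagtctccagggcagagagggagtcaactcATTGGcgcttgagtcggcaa
Cdx2, chr5:147307200-147307499, minus strand, under a member with a score of 2935.88: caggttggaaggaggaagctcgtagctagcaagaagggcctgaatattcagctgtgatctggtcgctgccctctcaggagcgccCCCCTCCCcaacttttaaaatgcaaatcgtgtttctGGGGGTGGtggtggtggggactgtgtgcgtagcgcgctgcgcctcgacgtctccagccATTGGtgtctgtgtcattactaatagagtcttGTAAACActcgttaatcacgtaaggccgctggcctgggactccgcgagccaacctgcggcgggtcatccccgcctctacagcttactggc
The Aqp5 promoter had 46 CpG and a GC content of 79.7%, and the Aqp3 promoter had 21 CpG and a TATA box match 29 bases before the start. The Ifitm3, Krt13 and Il1a promoters had 5, 2 and 5 CpG, and each held a match to the AP-1 motif, at 105, 196 and 12 bases before the start. In the Cdx2 promoter a forkhead match lay 40 bases before the start, next to 18 CpG.

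The untreated-only peaks were not the strongest of their list, although the score threshold sets them above the weakest peaks. Their scores lay between 300.36 and 3142.92 with a median of 521.86, and 554 of them (65.1%) scored below the median of the whole untreated list, 681.38. The score piles up at 3100 in this list, and 18 untreated-only peaks (2.12%) reached that value, against 36.5% of the 22775 overlapped untreated peaks that met the same score threshold. The 5 members just above the threshold scored 300.36 to 301.21, and the 5 untreated-only peaks just below it scored 298.86 to 299.93. No break in score separates the regions from the peaks just outside the rule.

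**Figure D1:**
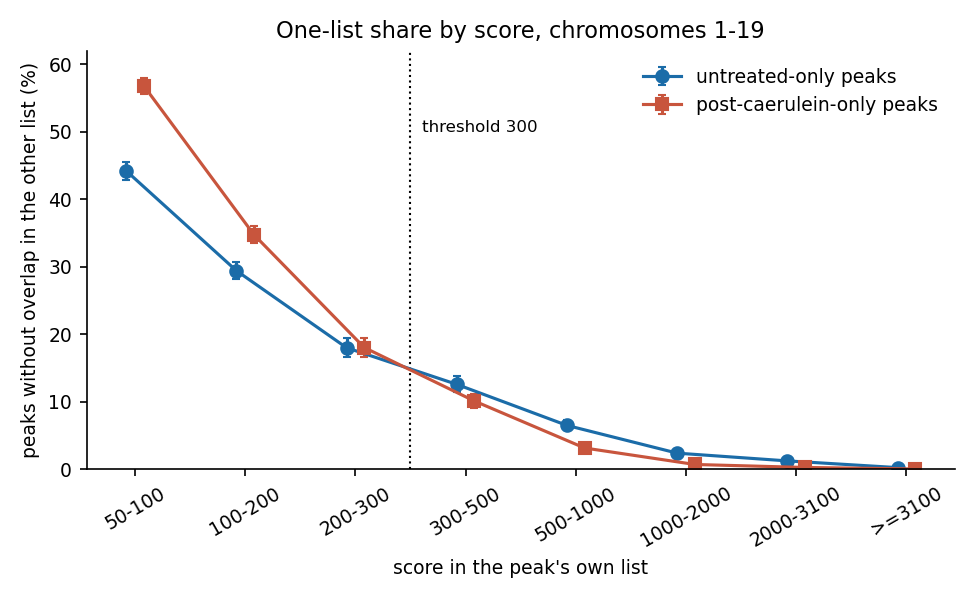
Share of peaks on chromosomes 1 to 19 without overlap in the other list (vertical axis, percent) by deposited score in their own list (horizontal axis), for untreated-only (blue circles) and post-caerulein-only peaks (red squares), with exact 95% intervals as bars. The untreated-only share is 44.2% at scores of 50 to 100 and 0.216% at 3100 and above. It lies below the post-caerulein-only share under 200, and lies above it from 300 on.

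The share of one-list peaks fell with score in both lists, and from a score of 300 upward it was higher in the untreated list. Untreated-only peaks were 12.6% of untreated peaks at scores of 300 to 500, against 10.1% for post-caerulein-only peaks in the post-caerulein list. At 500 to 1000 the shares were 6.47% untreated-only and 3.12% post-caerulein-only, and at 1000 to 2000 they were 2.36% untreated-only and 0.681% post-caerulein-only. At 3100 and above, 18 untreated-only peaks (0.216%) stood against 1 post-caerulein-only peak (0.0173%). At scores of 50 to 100 the order was the other way, with 44.2% untreated-only and 56.8% post-caerulein-only.

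With the same rule turned round, 555 of 22878 post-caerulein peaks (2.43%) were post-caerulein-only, so the untreated-only peaks outnumbered them by 296 at equal scores. The scores of the lists are not on a shared scale: the list median was 526.37 post-caerulein and 681.38 untreated. When the post-caerulein threshold was lowered to 246.82, which keeps the same share of each list, there were 851 untreated-only and 790 post-caerulein-only peaks, a difference of 61. At a score of at least 1000 the counts were 165 untreated-only and 45 post-caerulein-only peaks, a difference of 120. The direction of the difference held at each of these settings and its size did not.

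Untreated-only peaks had a median width of 2696 bp and ran from 1136 to 34505 bp. They were narrower than the overlapped peaks as a whole (3380 bp), but not once peaks of like score were compared. In the score bands 300 to 500 and 500 to 1000 their median widths were 2359 and 2796 bp, against 2260 and 2598 bp for the overlapped peaks. Only at scores of 1000 and above were the untreated-only peaks the narrower set, with 3803 bp against 4156 bp. Together they covered 2.61 Mb, which is 2.36% of the 110.5 Mb covered by untreated peaks that met the score threshold, against 1.84 Mb for the 555 post-caerulein-only peaks.

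**Figure D2:**
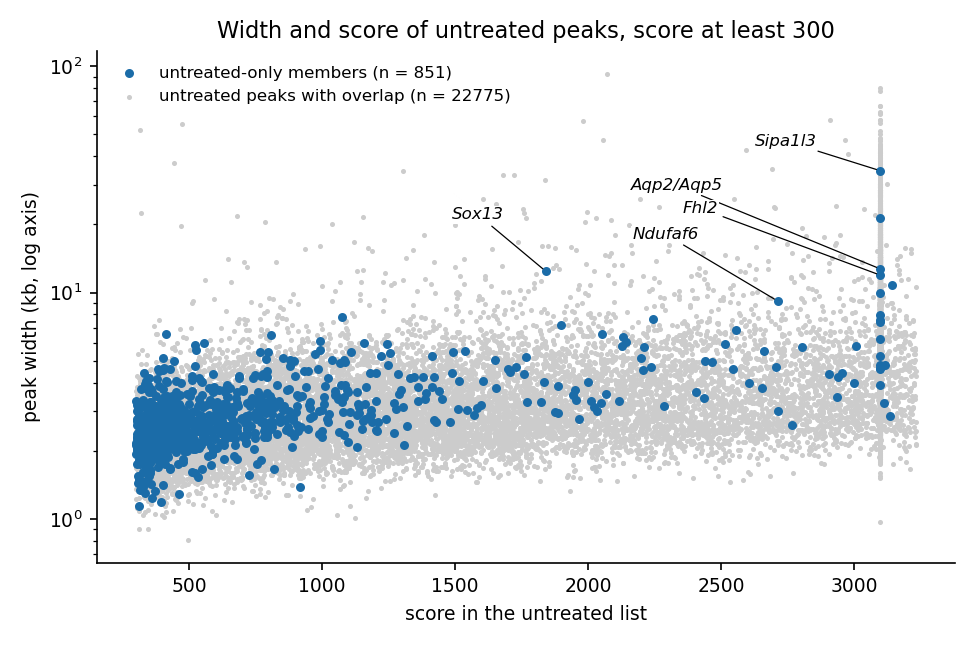
Width (vertical axis, kb, log axis) against deposited score (horizontal axis) of the 851 untreated-only members (blue) and the 22775 overlapped untreated peaks (grey). Most members crowd at scores under 1000 and a few kb of width, and the labelled ones, up to 34.5 kb at Sipa1l3, stand apart at high score or width.

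The distance to the post-caerulein list, which the rule sets in part, varied widely. The nearest post-caerulein peak lay a median of 10.5 kb away, 65 untreated-only peaks (7.64%) had one within 1 kb, and 1 adjoined a post-caerulein peak with 0 bp between. A post-caerulein peak lay within 10 kb of 412 of them (48.4%), while 177 were farther than 50 kb and 105 farther than 100 kb from the nearest one. Some of the regions adjoined peaks that both lists hold: 124 (14.6%) lay within 1 kb of an untreated peak that did overlap the post-caerulein list. With 2 left out that lay beyond the outermost post-caerulein peak of their chromosome, the peaks fell into 721 stretches without any post-caerulein peak, of which 102 held 2 or more of them, 230 peaks in all. The stretch around a member had a median length of 72.9 kb over the 849 members with a post-caerulein peak on both sides.

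The surroundings of the untreated-only peaks were also less covered in the post-caerulein list. Within 50 kb of the peak centre, the peak itself left out, post-caerulein peaks covered a median of 6.92 kb and untreated peaks 10.9 kb. The post-caerulein cover was the smaller at 642 of 851 members (75.4%, exact interval 72.4% to 78.3%), against 38.9% of overlapped peaks, and in the score band 300 to 500 at 71.0% of members against 35.2% of overlapped peaks. No post-caerulein peak lay in the window at 21.0% of members, against 2.28% of overlapped peaks. Part of these windows were empty in both lists beside the peak itself, at 9.28% of members and 1.44% of overlapped peaks. A post-caerulein partner of an overlapped peak can reach into the window, so the 10 kb on each side were left out as an added setting chosen after the data were seen. The shares were then 67.5% of members and 41.0% of overlapped peaks.

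The nearest other untreated peak was itself missing from the post-caerulein list at 353 members (41.5%), against 13.0% of overlapped peaks, and at 54.5% of members with scores of 1000 and above against 13.3% of overlapped peaks there. Untreated-only peaks thus had a neighbour of their own kind more often than overlapped peaks had an untreated-only neighbour. This follows in part from the rule, which places each member in a gap of the post-caerulein list. The nearest other untreated peak lay a median of 4.17 kb from members and can fall in the same gap. The scores of the neighbours were not matched. The counts rest on peaks of 1 library each, neighbouring peaks are not independent, and no test was made.

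**Figure D3:**
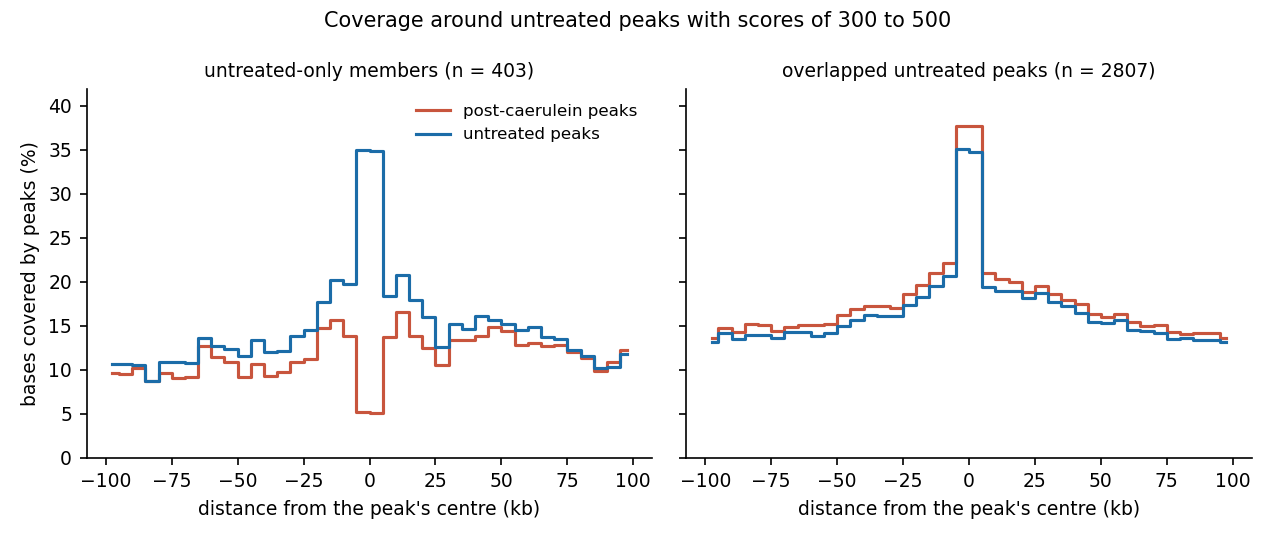
Share of bases covered by post-caerulein (red) and untreated peaks (blue) in bins of 5 kb within 100 kb of the centre (horizontal axis, kb) of untreated-only members (left, n = 403) and overlapped untreated peaks (right, n = 2807) with scores of 300 to 500. From 10 to 100 kb away, post-caerulein peaks covered a mean of 11.8% and untreated peaks 13.4% around members, against 16.3% post-caerulein and 15.4% untreated around overlapped peaks; the centre follows from the rule.

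Untreated-only peaks lay mostly away from gene starts. A RefSeq start was covered by 47 of the 829 members outside chromosome 18, for which no starts were used (5.67%, exact interval 4.20% to 7.47%), against 38.5% of overlapped peaks. The gap was there in each score band: at scores of 300 to 500, 500 to 1000 and 1000 and above, 4.35%, 5.42% and 9.32% of members covered a start, against 14.6%, 21.7% and 47.0% of overlapped peaks. An end of a protein-coding gene lay within 1 kb of 74 members (8.70%), against 42.1% of overlapped peaks. Members touched a gene body at 52.1% and overlapped peaks at 72.6%, and 155 members (18.2%) lay over 100 kb from any gene end, against 7.14% of overlapped peaks. Of the post-caerulein-only peaks, 8.41% covered a start, 64.5% touched a gene body and 21.6% lay over 100 kb from a gene end.

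**Figure D4:**
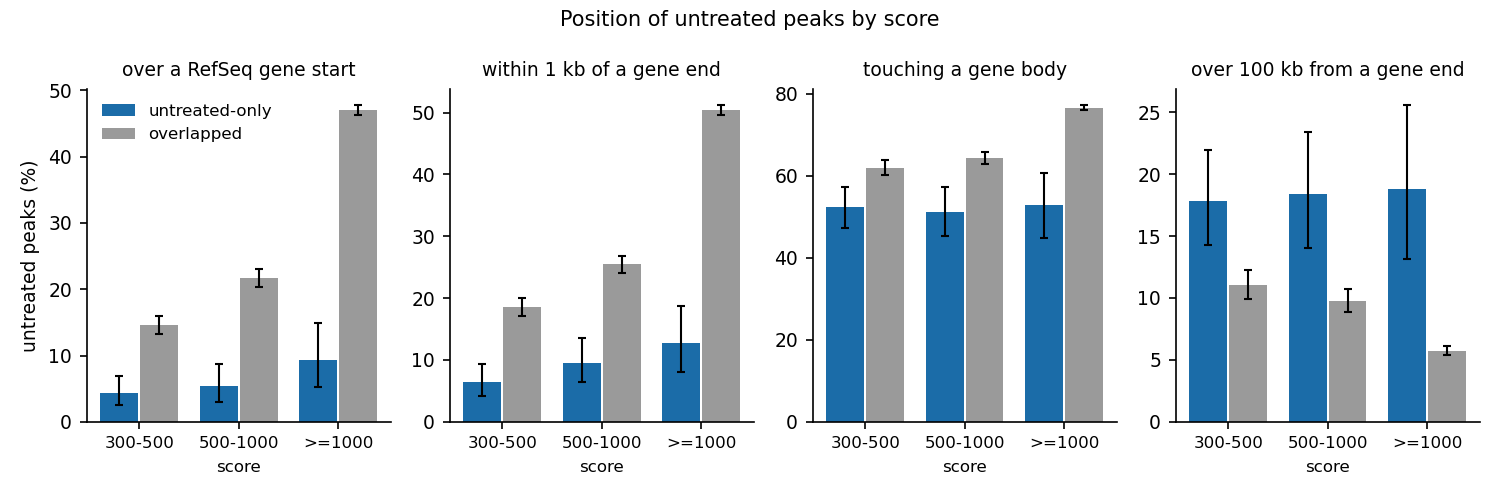
Share of untreated peaks (vertical axis, percent) over a RefSeq start, within 1 kb of a gene end, touching a gene body or over 100 kb from a gene end, by deposited score, for untreated-only members (blue) and overlapped peaks (grey), with exact 95% intervals as bars. In each score band fewer members than overlapped peaks cover a start (9.32% and 47.0% at scores of 1000 and above) and more lie over 100 kb from a gene end.

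The starts under members were close in base composition to promoters without any peak. Members covered 56 promoter windows of 50 genes, 27 of them protein-coding and 23 predicted or non-coding. Some windows share bases, such as both windows of Kit and those of Galntl6 and BC030500, so the same site can be counted more than once. Their median CpG number was 4, and 66.1% had 5 or fewer. Promoters under overlapped peaks with scores of 300 to 1000 had a median of 18 CpG and 14.5% of them had 5 or fewer, whereas promoters with no peak in either list had a median of 4 and a share of 66.0%. Over all 31396 promoters on the chromosomes used, the median was 7 and the share 43.2%. The median GC content was 49.5% under members and 59.7% under overlapped peaks with scores of 300 to 1000.

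Motifs of CpG-rich promoters were less frequent under members than under overlapped peaks. The GC box (GGGCGG), a site of SP and KLF factors, was found in 23.2% of promoters under members, 60.6% under overlapped peaks with scores of 300 to 1000, 16.6% with no peak in either list and 36.0% of all promoters. The TATA box (TATAAA) was found in 19.6%, 7.84%, 18.6% and 13.6% of the same sets, so its share under members was close to that of promoters with no peak. The AP-1 pattern (TGANTCA, with any base at N) was found in 7 of 56 promoters under members (12.5%), against 5.78% under overlapped peaks with scores of 300 to 1000, 9.34% with no peak in either list and 7.84% of all promoters. These were the promoters of Ifitm3, Krt13 at both of its starts, Nlrp6, Il1a and 2 non-coding or predicted genes. The AP-1 share rests on these 7 matches alone. Its difference from the other sets was not tested and is not read as a trait of the members. The middle base was T at Ifitm3 and A at the Krt13 start shown above, and C or G at the others. Matches to the CCAAT box (CCAAT) were found in 42.9% of promoters under members and 37.3% of all, to KLF (CCNCNCCC) in 48.2% and 49.8%, to TEAD (GGAATG) in 12.5% and 14.6%, and to the E-box (CACGTG) in 5.36% and 7.14%. A KLF match can contain a GC box. Forkhead (TGTTTAC) matched 1 promoter under a member, and the cAMP response element (TGACGTCA), ETS (CCGGAAGT), NR5A2 (TCAAGGTCA), NF-kB, STAT (TTCCNGGAA) and CTCF core motifs matched 0 of 56. In all promoters these 7 were found in 3.71%, 1.83%, 3.95%, 0.417%, 0.417%, 1.18% and 0.207%. All motifs were searched on both strands, and a match describes letters in the window, not a bound site.

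Of the 27 protein-coding genes with a start under a member, 23 had no post-caerulein peak within 1 kb of either gene end, and 15 had none anywhere in the gene body. These counts follow in part from the rule, since short genes such as Aqp5 and Ifitm3 lie wholly inside their member. The 4 with an end marked post-caerulein were Cdx2, Dnajc7, Krt13 and Slc6a19. Over all genes, 79 of 20665 protein-coding genes (0.382%) had an end marked by a member, and 44 of the 79 had no end marked post-caerulein. For scale, 281 genes (1.36%) had an end marked in the untreated list alone at any score. The genes named in the next paragraphs include some chosen after their values were seen.

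Water channel genes were among these starts. Aqp5, a water channel of secretory epithelia, and its neighbour Aqp2, known from the kidney collecting duct, lay under 1 member of 12707 bp with a score of 3100 at chr15:99583474-99596180, over the Aqp5 gene, its start and one end of Aqp2. The nearest post-caerulein peak was 52.7 kb away, and the stretch without one spanned 136 kb. Aqp3, which passes water and glycerol, had 2 members with scores of 523.97 and 343.26, over its start and its other end, in a stretch of 65.5 kb. Of 11 aquaporin genes, 1 had an end marked post-caerulein (Aqp11) and 5 in the untreated list (Aqp2, Aqp3, Aqp4, Aqp5 and Aqp11), 3 of them by a member.

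Genes induced by interferon were also among them. Ifitm3, whose product restricts virus entry, lay under a member of 7947 bp with a score of 3100, and its stretch of 49.2 kb without a post-caerulein peak held 4 members with scores of 1269.1 to 3100 that covered 18.97 kb. In the same gene cluster a member with a score of 1283.86 touched Ifitm5 and Pgghg, and another with a score of 910.84 lay 1408 bp from Ifitm2, whose ends were marked in both lists. Nearby, the start of Nlrp6, an intestinal sensor of the inflammasome family, lay under a member with a score of 1106.88, and a member with a score of 3100 lay 4826 bp from the gene. The start of Oas1a, an oligoadenylate synthetase that senses double-stranded RNA, had a score of 582.55. Oasl2, of the same family, had 2 members with scores of 361.45 and 310.92, both within 1 kb of one end of the gene, and the other end was marked post-caerulein. Members also covered the starts of Ifi205 (515.40) and Ubd (388.13), which encodes a ubiquitin-like protein, and lay within 1 kb of an end of Oas1f (624.35) and Trim25 (403.51). Trim25 also had an end marked post-caerulein.

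Of the 23 measured genes of the interferon and STAT list, 3 had a member assigned (Oas1a, Oasl2 and Samd9l), and 2 had an end marked by one, while 21 had an end marked post-caerulein and 22 in the untreated list. The members thus touched single genes of a list that was otherwise marked in both libraries. Over all protein-coding genes, 2.85% had a member assigned and 0.382% had an end marked by one. This list and the next hold many marked genes, so their shares and those over all genes do not compare like genes. The inflammation and NF-kB list had 2 of 24 genes with a member: Il1a, the cytokine interleukin-1 alpha, with a score of 1006.55 over its start and no end marked post-caerulein, and Csf1, the macrophage growth factor, with a peak of score 480.56 inside a gene marked in both lists.

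Some further genes were picked after their values were seen. Ltf, which encodes the iron-binding secreted protein lactoferrin, had a member over its start with a score of 2069.34 and another 3011 bp away with a score of 3100. Together with a member near Rtp3, also with a score of 3100, they lay in a 60.0 kb stretch without a post-caerulein peak. Krt13, a keratin of stratified mucosa, had a member of 5380 bp with a score of 1254.21 over both of its starts, with a post-caerulein peak 985 bp away. Members also lay within 1 kb of the ends of Krt6a (1102.41), Krt15 (302.85) and Trim29 (875.21), and of these Krt6a also had an end marked post-caerulein. Cdx2, a homeobox factor that directs intestinal identity, had a member of 3464 bp with a score of 2935.88 over its start, and the nearest post-caerulein peak lay 3700 bp away with a score of 721.09 in the post-caerulein list. The start of Kit, a receptor tyrosine kinase, scored 1075.2, that of the homeodomain-like protein gene Hopx 557.9 and that of the basic helix-loop-helix factor gene Atoh8 553.13. Hopx had another member, with a score of 1391, 28605 bp away, and neither Hopx nor Kit had an end marked post-caerulein.

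At Sipa1l3, which encodes a protein of epithelial polarity, a member of 34505 bp with a score of 3100 and another with a score of 3113.94 filled 37.7 kb of a 93.9 kb stretch around the start of the gene, while 11 post-caerulein peaks lay elsewhere in the gene body. At Fhl2, a LIM-domain cofactor of transcription, 3 adjoining members with scores of 3142.92, 3100 and 2114.98 covered 26.1 kb of a 36.2 kb stretch and an internal start. A region of chromosome 4 held a member of 21405 bp with a score of 3100, 245955 bp from the nearest protein-coding gene end, in a 137 kb stretch with 2 further members. The other members with the highest scores were assigned to Elovl5, a fatty acid elongase, at a distance of 57963 bp (3135.73), Mrps28, a mitochondrial ribosomal protein (3118.94), Ctnnbip1, an inhibitor of beta-catenin (3100), Hspe1, a mitochondrial chaperonin (3100), and Slamf9 (3100). A further one of score 3100 lay inside Prkch, a protein kinase C gene, one of score 3100 was assigned to a predicted gene, and one of score 3100 lay 321207 bp from any gene end on chromosome 1. Among the 10 widest were also members at Sox13 (12390 bp, a transcription factor of the SOX family), Ndufaf6 (9151 bp, a mitochondrial assembly factor) and Aspa (7773 bp, aspartoacylase). The members at gene ends with high scores included Psmd3, a proteasome subunit (2467.93), Gtf2h2, a subunit of a general transcription factor (2441.46) and the facing starts of Galntl6 and BC030500 (2129.73). Psmd3 and Gtf2h2 also had an end marked post-caerulein.

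Members assigned by the nearest gene end within 100 kb reached 589 of 20665 protein-coding genes (2.85%). Of these, 502 had 1 member, 71 had 2, 13 had 3, 2 had 4 and 1 had 5. The gene with 5 was Foxo1, a forkhead factor that insulin signalling keeps out of the nucleus, with scores of 340.78 to 541.36: 2 lay in its body and 3 beyond its ends, in 3 stretches, and 7 overlapped peaks were assigned to the same gene. Sulf2, which removes sulphate from heparan chains, had 4 members with scores of 322.67 to 1248.52, and the other gene with 4 was a predicted one whose members lay inside Prkch. The genes with 3 were Fhl2, Itprid2, Ppp3ca (the calcineurin catalytic subunit), Fut9 (a fucosyltransferase), Rimkla, Fam126a, Macroh2a1 (a histone variant), Pdzrn3, Tmtc1, Oscar (an osteoclast receptor), Nxn (nucleoredoxin), Pgap1 and Myl10 (a myosin light chain). A post-caerulein-only peak with a score of at least 300 was assigned to 368 genes, and 7 genes had both kinds, which is 1.19% of the 589 and 1.90% of the 368. For scale, 2.85% of all protein-coding genes had a member assigned. The small overlap was not tested and is not read as a separation of the gene sets.

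The pathway lists had a member assigned at 29 of their 372 measured genes (7.80%), against 2.85% of all protein-coding genes. The lists hold many genes that are marked in this epithelium, as 257 of the 372 had an end marked post-caerulein and 259 in the untreated list, so the shares do not compare like genes. The water and ion transport list had 5 of 20 genes with a member assigned: Aqp2, Aqp3, Cftr, the bicarbonate cotransporter gene Slc4a4 and the calcium pump gene Atp2b1 (at 56443 bp). Each member was assigned to 1 gene, and the one over Aqp5 was assigned to Aqp2, so the counts of assigned genes leave out Aqp5. In the water and ion transport list, 13 genes had an end marked post-caerulein and 17 in the untreated list, 3 of them by a member. The ductal list had 4 of 22. Members lay inside Cftr (466.22 and 402.16), Slc4a4 (458.63) and the stem and duct marker gene Prom1 (411.12). The member assigned to the forkhead factor gene Foxa2 (328.45) lay 94309 bp from it. Each of the 4 was marked at an end in both lists. Of the whole ductal list, 20 genes had an end marked post-caerulein and 21 in the untreated list, 1 of them (Aqp5) by a member.

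The Wnt, Hippo and Notch list had 5 of 24 genes with a member, all outside the starts. A member lay inside the TCF factor gene Tcf7l2 (386.94), and 1081 bp from Tcf7l1 (536.11), of the same family. Others lay 8588 bp from the receptor gene Fzd1 (780.29), 16279 bp from the Notch ligand gene Jag1 (839.90) and 88480 bp from Ctnnb1 (beta-catenin, 313.08). In the Wnt, Hippo and Notch list, 20 genes were marked at an end in each library. The metabolism and insulin-FOXO list had 5 of 26, among them Foxo1 and, with a member inside the gene, Rptor (a subunit of the TOR complex, 1204.13). The others were Arrdc4 (an arrestin-domain protein, 1152.48 at 52247 bp), Elovl5 (3135.73 at 57963 bp, and 765.91) and the glucose transporter gene Slc2a1 (350.71 at 7888 bp). Endothelial genes had 2 of 14, the receptor genes Kdr (335.68, at 87658 bp) and Tek (487.39, inside the gene). Neither Kdr nor Tek had an end marked in either list. Single genes had a member in the metaplasia and progenitor list (Hopx, 1 of 22), the endocrine list (Neurod1, 1 of 17, with members of 2939.96 and 1652.80 that lay 52986 and 61338 bp from the gene, at no marked end in either list), the AP-1 and immediate early list (Myc, 1 of 20, 335.28 at 70700 bp), the TGF-beta, matrix and adhesion list (Tgfbr2, 1 of 24, 350.66) and the housekeeping list (Tbp, 1 of 18, 714.63).

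No member was assigned to any of the 22 acinar, 16 mesenchymal, 16 immune, 28 EGFR-MAPK, 20 unfolded protein response or 20 cell cycle and p53 genes measured. Over all protein-coding genes the share with a member was 2.85%, so a list this short can easily hold none. The absence is not read as a trait of these lists. These lists differed in what the libraries held: of the EGFR-MAPK genes 26 had an end marked post-caerulein and 27 in the untreated list, and of the unfolded protein response genes all 20 in each, whereas of the acinar genes 4 had an end marked post-caerulein and 3 in the untreated list.

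The longest stretches without a post-caerulein peak held few members. A score of 733.62 was that of the only member in a stretch of 5642 kb on chromosome 15, and 3 members with scores of 300.36, 668.20 and 1509.04 stood in one of 4914 kb on chromosome 4. Stretches of 4444, 4356 and 4262 kb followed on chromosomes 15, 11 and 12. The one on chromosome 11 held a member inside Tenm2, a neuronal adhesion protein, with a score of 660.26, and the one on chromosome 12 held 3 members. The member farthest from any post-caerulein peak lay 1940 kb from it, in the stretch on chromosome 4.

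Untreated-only peaks were found on every chromosome from 1 to 19, with shares of untreated peaks between 2.55% on chromosome 17 and 4.77% on chromosome 1.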

How the data were processed

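The members and the gene lists were chosen with earlier results of these data known. Per the submitters' processing notes, the reads were handled with Trimmomatic 0.38, Bowtie2 2.2.6, SAMtools and MACS 1.4 against GRCm38 (mm10). The options and the control library given to the caller are not given in the sources used here. The deposited lists, 1 per library, give each peak's position and a score that no header defines. This score is the authors' own value and served to rank or select peaks inside each list. The same score cuts were also set on both lists for the one-list shares and counts, although the scores share no scale.

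Overlaps (at least 1 bp) were computed with Python 3.11.15, numpy 2.4.6 and pandas 2.3.3, checked against bedtools 2.31.1 and tested on simulated lists. Exact Clopper-Pearson 95% intervals came from scipy 1.17.1. Overlapped untreated peaks were split at scores of 500 and 1000 to match the members. Gene ends (21887 protein-coding genes, 20665 on chromosomes 1 to 19) and promoters came from RefSeq tables of GRCm38.p6. A peak was assigned to the nearest gene end within 100 kb. Where the ends of several genes were equally near, the gene with the lowest start coordinate was taken. No genome was used, so sequence was read in promoters and not in the peaks, and starts on chromosome 18 were not used here.

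Named by rule were the 15 highest-scored and 10 widest members, the 10 highest-scored at a gene start or end, those in the 5 longest stretches, genes with 3 or more members and every gene of the lists with a member. Predicted genes were counted only, and some items the rule would name are not reported here. The alternatives changed the score threshold, the definition of overlap, the number of post-caerulein peaks, the joining of adjoining peaks, the chromosomes, the windows and the gene assignment.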

Additional observations from a re-analysis of the deposited data

How the results depend on the processing

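Lower and higher score thresholds changed the counts the most, because a lower cut takes in more peaks and a higher one fewer. Why the other values moved with the threshold was not tested. At a score of at least 200 there were 1343 members with a median width of 2411 bp at 902 genes. At 500 there were 448 members with a median width of 3103 bp at 318 genes, and 79.5% of them had less post-caerulein than untreated cover nearby. At 1000 there were 165 members with a median width of 3803 bp at 120 genes, a median of 12.6 kb from the nearest post-caerulein peak, 12.7% at a gene end and 84.8% with less post-caerulein cover. They outnumbered the post-caerulein-only peaks by 120. With the same share of each list kept by rank, the full set of 851 members outnumbered 790 post-caerulein-only peaks by 61.

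When a peak counted as untreated-only unless 50% of it was covered, there were 1334 members with a median width of 3128 bp at 896 genes, 2.96 kb from a post-caerulein peak, and 10.8% lay at a gene end. Counting a post-caerulein peak within 1 kb as overlap moved the median distance to 12.7 kb. Merging untreated peaks within 1 kb gave a median width of 2767 bp, a distance of 14.7 kb and a share of 72.3% with less post-caerulein cover. That share was 71.3% in a window of 25 kb, and 67.5% with the 10 kb beside the peak left out, a setting added after the data were seen, as was leaving out chromosome 18. At gene ends the share was 13.4% within 2.5 kb and 6.46% within 500 bp, and an assignment limit of 10 kb gave 269 genes. The excess of untreated-only over post-caerulein-only peaks and the majority of members with less post-caerulein cover kept their direction at each setting run for them. The comparisons of position and width with overlapped peaks were not repeated at most settings.

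No paired analysis was possible because there was only 1 library of each condition. The alternative of 300 bases at the peak centre was not run, because no genome was used. The depth of the libraries is unknown.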

Other observations

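Chromosome X lies outside the rule, and there the share of untreated-only peaks was higher than on any of chromosomes 1 to 19. With a score of at least 300, 28 of 558 untreated peaks on X (5.02%, exact interval 3.36% to 7.17%) had no post-caerulein overlap, against 6 of 517 post-caerulein peaks without untreated overlap (1.16%, interval 0.427% to 2.51%). On chromosome Y, 0 of 4 peaks in each list were one-list peaks. The sex of the mice is not given in the labels, and no explanation was tested.

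The hairpins of 4 microRNAs in the RefSeq table lay under or across the edge of a member: Mir6943 (score 971.81), Mir7117 (385.21), Mir7680 (365.1) and Mir7229 (354.82). The mature forms of the hairpin under the member with the highest score of the 4 are shown as RNA, with the seed, bases 2 to 8, in capitals.
mmu-miR-6943-5p, chr13:55453111-55453130, plus strand: uGGGGUGAgguuggaagcua
mmu-miR-6943-3p, chr13:55453150-55453171, plus strand: cUGCUUCCauaccccuacccag
A peak list says nothing of whether these hairpins were transcribed.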
